A study of Mus musculus with 9 samples.

Results

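The 10 genes described here belong to the OAS, IFIT and MX families of antiviral effectors, with Cmpk2 added from the same response. They were taken by gene symbol from the deposited table of normalized counts, and all 10 of Oasl1, Oasl2, Oas1a, Oas2, Oas3, Ifit1, Ifit3, Ifit3b, Mx2 and Cmpk2 had a row among its 14020 genes. The table came from RNA sequencing of cultured mouse hepatic stellate cells, the vitamin A-storing cells of the liver that become collagen-producing myofibroblasts in culture and in fibrosis. The 3 genotypes compared had 3 libraries each: an Nbr1-Sqstm1 double knock-out (called the double knock-out here), a Sqstm1 knock-out, and WT. All were liver stellate cells grown for 4 days in DMEM with 10% serum, glutamine and antibiotics, with no further treatment. Sqstm1 encodes p62 and Nbr1 encodes a related protein, both receptors that carry ubiquitin-tagged cargo into autophagy. The double knock-out also lacks Sqstm1, so it differs from the Sqstm1 knock-out by the label of the Nbr1 allele, while each knock-out was also set against WT. The sources used here do not give the alleles, nor the animals, sexes or cultures behind the libraries, so p-values measure only the spread between these libraries, which may be technical.

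These genes are switched on when interferon reaches a cell. Interferon receptors act through JAK kinases to bring STAT2 and IRF9 into a complex that binds interferon-stimulated response elements (ISREs) beside the genes. OAS enzymes sense double-stranded RNA and make a small messenger that leads to RNA decay, IFIT proteins bind viral RNA that lacks host cap marks, and MX proteins are GTPases that block viral ribonucleoproteins. Stellate cells, like most cells, keep a low level of such genes without infection.

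Promoter sequences were laid beside the genes because the ISRE is a known control element of such genes. The choice of members did not use these sequences. The members are known interferon-induced genes, however, so more matches than over all genes were likely beforehand. RefSeq windows of GRCm38.p6, running 250 bases before to 50 bases after each start site, were found for 8 of the 10 members; Oas2 and Mx2 had no entry. Both strands were searched for the core letters of an ISRE, GAAA, any 2 bases and GAAA. A match lay in 5 of the 8 windows (Oas1a, Oas3, Ifit1, Ifit3 and Ifit3b), and in 1131 of 32851 windows of 300 bases over all genes (3.44%). The windows of Ifit3 and Ifit3b are near copies with the same matches, so they are not separate finds. The windows of the 3 members with enough reads for the main test, Oasl2, Ifit1 and Ifit3, are shown with that of Oas1a, the canonical OAS enzyme of the set. Each is written 5′ to 3′ on the gene's own strand, and capitals mark the letters of a match. Ifit1 (chr19:34640639-34640938, plus strand), Ifit3 (chr19:34583279-34583578, plus strand), Oas1a (chr5:120907476-120907775, minus strand) and Oasl2 (chr5:114896684-114896983, plus strand) read as follows.
Ifit1: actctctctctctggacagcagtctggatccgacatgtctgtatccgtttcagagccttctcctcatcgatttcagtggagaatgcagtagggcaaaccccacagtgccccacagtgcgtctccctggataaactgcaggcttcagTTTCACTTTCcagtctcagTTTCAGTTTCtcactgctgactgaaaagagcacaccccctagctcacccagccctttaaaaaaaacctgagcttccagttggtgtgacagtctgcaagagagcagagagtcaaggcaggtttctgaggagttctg
Ifit3: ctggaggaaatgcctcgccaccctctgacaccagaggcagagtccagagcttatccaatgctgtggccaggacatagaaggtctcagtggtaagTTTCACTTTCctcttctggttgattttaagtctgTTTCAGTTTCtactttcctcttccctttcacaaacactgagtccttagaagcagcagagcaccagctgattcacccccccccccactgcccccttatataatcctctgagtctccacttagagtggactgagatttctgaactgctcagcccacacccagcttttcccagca
Oas1a: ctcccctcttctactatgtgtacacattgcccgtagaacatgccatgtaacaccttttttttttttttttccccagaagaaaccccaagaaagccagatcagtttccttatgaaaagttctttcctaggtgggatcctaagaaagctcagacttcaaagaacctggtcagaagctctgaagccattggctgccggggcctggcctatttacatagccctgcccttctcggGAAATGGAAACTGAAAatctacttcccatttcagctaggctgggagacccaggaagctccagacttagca
Oasl2: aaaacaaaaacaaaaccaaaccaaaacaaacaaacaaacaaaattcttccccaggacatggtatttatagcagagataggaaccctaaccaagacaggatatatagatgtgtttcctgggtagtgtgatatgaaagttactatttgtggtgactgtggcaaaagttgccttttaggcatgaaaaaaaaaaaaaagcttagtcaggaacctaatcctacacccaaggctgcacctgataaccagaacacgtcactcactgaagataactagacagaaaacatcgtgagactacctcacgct

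The Ifit1 window held 2 matches on the opposite strand, at -104 to -95 and -85 to -76 from the start site. The Ifit3 window also held 2 on the opposite strand, at -156 to -147 and -122 to -113, and so did that of Ifit3b, at -188 to -179 and -154 to -145. In Oas1a the 2 matches overlapped, at -20 to -11 and -14 to -5. Oas3 held 1, at -75 to -66. No match to these letters lay in the windows of Oasl2, Oasl1 or Cmpk2. The letters TATAAA were also searched on both strands and were found in Oasl2 alone, on the opposite strand, and in 13.6% of all windows.

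Library totals were small, at 873156 to 1142862 reads in the double knock-out, 1060809 to 1333537 in the Sqstm1 knock-out and 819677 to 1467793 in WT. A single read was worth 0.606 to 1.36 normalized counts, so most members rest on a handful of reads. Sqstm1 had 25.8, 51.4 and 59.9 normalized counts in the double knock-out, 40.8, 30.8 and 86.8 in the Sqstm1 knock-out, and 223, 255 and 243 in WT. It was lower than in WT in both, with a log2 difference of -2.45 in the double knock-out (limma adjusted p = 0.00116) and -2.30 in the Sqstm1 knock-out (limma adjusted p = 0.0023). Nbr1 had 81.3, 79.9 and 111 normalized counts in the double knock-out, 75.5, 72.2 and 88.9 in the Sqstm1 knock-out, and 106, 92.7 and 106 in WT, with values that overlapped between the double knock-out and WT. Its total count therefore does not check the Nbr1 label, since a deletion of part of the gene need not lower it. The design text of the series names an Nbr1 knock-out and wild type, whereas the labels of the samples name the 3 genotypes used here, and which holds for the double knock-out libraries was not settled beyond their low Sqstm1 counts. Reads of the Y-linked gene Ddx3y were 44.5 to 54.8 normalized counts in the double knock-out, 0 in every Sqstm1 knock-out library, and 67.8 to 76.4 in WT, and Eif2s3y, Kdm5d and Uty were likewise at 0 in the Sqstm1 knock-out. In each comparison with the Sqstm1 knock-out, the sex that these reads point to and the genotype cannot be told apart. The double knock-out and WT were not alike in all Y-linked genes either. Eif2s3y had 5.74, 10.3 and 29.3 normalized counts in the double knock-out and 72.2, 64.8 and 60.6 in WT. Ddx3y was also lower there with no overlap, while Kdm5d and Uty overlapped. The source of that difference was not tested. Replicate 3 of the Sqstm1 knock-out stood apart, with r = 0.853 and 0.847 to the other libraries of its group, against 0.878 or more for every other pair within a group. Of 13 stellate and fibroblast markers, 9 had a row and summed to 4586 to 6696 normalized counts in the double knock-out, 5380 to 6236 in the Sqstm1 knock-out and 1793 to 1949 in WT. Lrat, Des, Reln and Lum were not analysed here. Most of each sum came from Col1a1, Col1a2, Col3a1 and Acta2, whose means were lowest in WT, as were those of Hand2 and Dcn. Other markers did not follow the sum. In the double knock-out, the Sqstm1 knock-out and WT, Pdgfrb averaged 66.2, 52.9 and 55.9, Pdgfra 234, 74.1 and 98.6, and Vim 230, 404 and 364. Of 14 macrophage markers, 4 had a row and summed to 14.3 to 29.3 in the double knock-out, 8.68 to 12.3 in the Sqstm1 knock-out and 20.3 to 35.4 in WT. Of 6 hepatocyte markers, none had a row. The sources used here do not say whether reads were counted by strand.

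Oasl2, an OAS-like protein whose copy in mouse can still make the OAS product, gave the clearest difference. It had 49.7, 59.4 and 50.9 normalized counts in the double knock-out, 6.13, 1.62 and 3.25 in the Sqstm1 knock-out, and 68.1, 52.0 and 52.2 in WT. The 3 Sqstm1 knock-out libraries lay below all 6 others, and the double knock-out and WT overlapped. Oasl2 averaged 3.67 ± 2.28 in the Sqstm1 knock-out and 57.4 ± 9.25 in WT (SD, n = 3 each). The log2 difference was -3.75 (SE 0.37, limma adjusted p = 3.8e-05), and Oasl2 was thus 15.7-fold lower in the Sqstm1 knock-out by the ratio of means. In the double knock-out it averaged 53.3 ± 5.25 (SD, n = 3), 14.5 times the mean of the Sqstm1 knock-out, with a log2 difference of 3.66 (SE 0.37, limma adjusted p = 3.75e-05). Between the double knock-out and WT the log2 difference was -0.10 (95% interval -0.90 to 0.71, limma adjusted p = 0.912), so differences within that interval were not resolved. Both calls held in 21 of 21 alternatives, with adjusted p up to 0.00147 for the Sqstm1 knock-out against WT and up to 0.00107 for the double knock-out against the Sqstm1 knock-out. Both comparisons use the same 3 Sqstm1 knock-out libraries, so a fall in one and a rise in the other are not independent of each other. In these bulk libraries, fewer cells that express a gene and less RNA of it per cell cannot be told apart. Of the 4 macrophage markers with a row, Cd14, the one with the most reads, was also lowest in the Sqstm1 knock-out, at 11.1 ± 5.9 normalized counts in the double knock-out, 1.29 ± 1.59 in the Sqstm1 knock-out and 17.6 ± 3.73 in WT (SD, n = 3 each). The other markers had few reads: Csf1r averaged 3.2, 3.05 and 1.97 normalized counts in the double knock-out, the Sqstm1 knock-out and WT, Mpeg1 2.67, 2.71 and 1.77, and Cd68 4.04, 3.98 and 4.28. The part of these markers in the Oasl2 result was not tested.

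**Figure D1:**
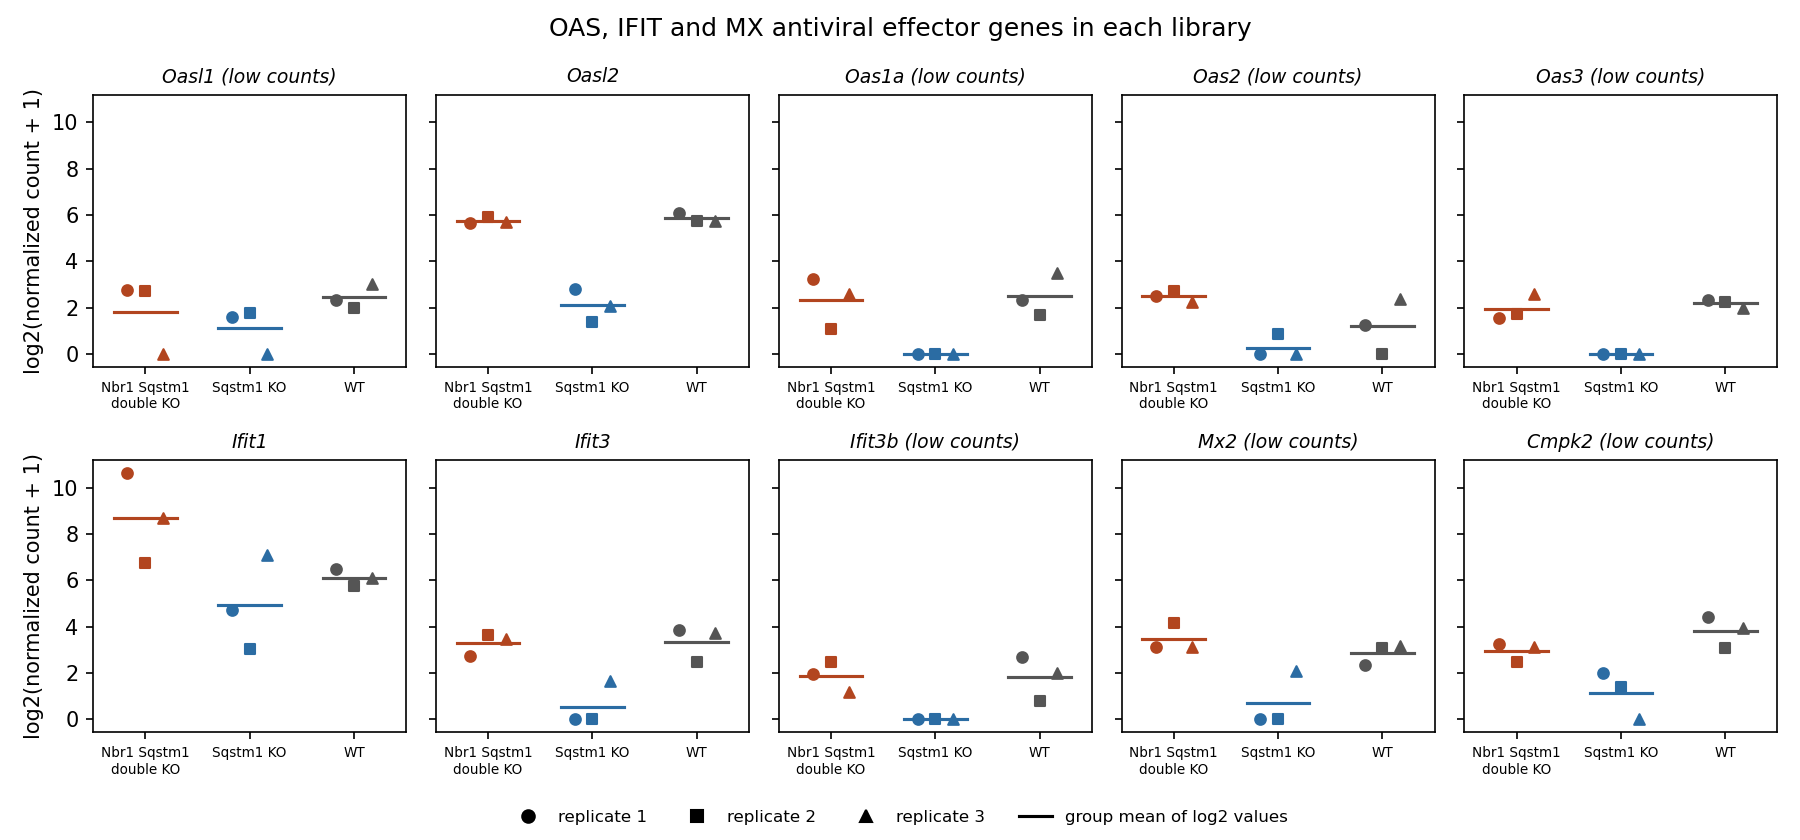
Each panel plots log2(normalized count + 1) of 1 member in the 9 libraries, by genotype, with the replicate shown by the marker and the group mean of the log2 values as a line. "Low counts" marks the 7 members below the filter of 10 normalized counts in 3 libraries. In the Oasl2 panel the Sqstm1 knock-out libraries, at 1.62 to 6.13 normalized counts, lie below all the others, while the Ifit1 panel has a double knock-out library at 1601.

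The OAS enzymes themselves had few reads. Oas1a, which makes the messenger of the OAS family, had 8.61, 1.14 and 5.09 normalized counts in the double knock-out, 0 in all 3 Sqstm1 knock-out libraries, and 4.09, 2.26 and 10.3 in WT. These values come from 14 reads in the double knock-out, 0 in the Sqstm1 knock-out and 23 in WT. Set against a floor of 3 reads over the Sqstm1 knock-out group, which leaves out counting error in the other group, Oas1a was at least 6.47-fold lower there than in WT, and at least 5.40-fold higher in the double knock-out than in the Sqstm1 knock-out. With counting error in both groups, the exact 95% interval of the ratio of pooled Oas1a reads ran up to 0.206 in the Sqstm1 knock-out against WT, and down to 3.84 in the double knock-out against the Sqstm1 knock-out, which are looser limits. In its annotated transcript, 57.6% of the 50-base windows also occur in Oas1g, its neighbour on chromosome 5, so reads of both cannot always be told apart. Oas3, a larger enzyme with several OAS domains, had 1.91, 2.28 and 5.09 normalized counts in the double knock-out, 0 in each Sqstm1 knock-out library, and 4.09, 3.77 and 3.03 in WT. By the floor Oas3 was at least 3.66-fold lower in the Sqstm1 knock-out than in WT, and at least 3.09-fold higher in the double knock-out than in the Sqstm1 knock-out, while the exact 95% limits of the ratios were 0.389 and 1.98. Oas2, another enzyme of the family, had 4.78, 5.71 and 3.82 normalized counts in the double knock-out, 0, 0.812 and 0 in the Sqstm1 knock-out, and 1.36, 0 and 4.24 in WT. With 1 read in the Sqstm1 knock-out and 8 in WT, the ratio of pooled reads for Oas2 was 0.148 (exact 95% interval 0.00334 to 1.1), which spans no difference. Against the Sqstm1 knock-out, the double knock-out had 13 reads of Oas2 and a ratio of 15.0 (2.26 to 640). Intervals on pooled reads cover counting error only and leave out the spread between libraries.

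Oasl1, an OAS-like protein without OAS activity that in mouse dampens translation of Irf7, overlapped between the double knock-out and both other groups. It had 5.74, 5.71 and 0 normalized counts in the double knock-out, 2.04, 2.43 and 0 in the Sqstm1 knock-out, and 4.09, 3.01 and 7.28 in WT. The Sqstm1 knock-out libraries lay below those of WT, with a ratio of pooled reads of 0.312 (exact 95% interval 0.0909 to 0.863). Of the 10 members, Oasl1 alone has an annotated gene on the opposite strand whose exons overlap its own. That gene, Gm13822, lies between Oasl2 and Oasl1 on chromosome 5 and was singled out after its values were seen. Gm13822 had 67.9, 10.3 and 50.9 normalized counts in the double knock-out, 0 in all 3 Sqstm1 knock-out libraries, and 0, 0 and 1.82 in WT. It reached the filter on low values through the double knock-out alone, so its values are given with no test. Without knowing whether reads were counted by strand, reads of Gm13822 and of the overlapping part of Oasl1 cannot be told apart.

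Ifit1, which binds viral RNA with an unfinished cap, did not follow Oasl2. It had 1601, 107 and 408 normalized counts in the double knock-out, 25.5, 7.30 and 134 in the Sqstm1 knock-out, and 89.9, 52.7 and 66.7 in WT. Each double knock-out library was above each WT library, and replicate 1 was the highest of all 9. The Sqstm1 knock-out libraries fell on both sides of WT. Ifit1 averaged 705 ± 790 in the double knock-out, 55.8 ± 68.8 in the Sqstm1 knock-out and 69.8 ± 18.8 in WT (SD, n = 3 each), so in both knock-outs the SD exceeded the mean. It rose in the double knock-out against the Sqstm1 knock-out, with a log2 difference of 3.74 (SE 0.90, limma adjusted p = 0.024). That call was lost without replicate 1 or 3 of the double knock-out (log2 differences 2.76 and 3.75, limma adjusted p = 0.125 and 0.0966) and without replicate 1 or 2 of the Sqstm1 knock-out (3.62 and 2.79, limma adjusted p = 0.058 and 0.0817). Without replicate 3 of the Sqstm1 knock-out, the library that stood apart, the Ifit1 difference was 4.80 (limma adjusted p = 0.000382), and without replicate 2 of the double knock-out it was 4.70 (limma adjusted p = 0.00847). Against WT the double knock-out differed by 2.58 on the log2 scale in Ifit1 (SE 0.90, unadjusted p = 0.0124 and adjusted p = 0.111, both from the limma fit across all genes), which missed the threshold. The same contrast passed in edgeR's quasi-likelihood test on recovered reads (adjusted p = 0.0203) and in DESeq2 (adjusted p = 0.0491), and over all 21 alternatives its adjusted p ran from 6.46e-05 to 0.384. In limma it was 1.61 without replicate 1 of the double knock-out (adjusted p = 0.384) and 3.55 without replicate 2 (adjusted p = 0.0327), and at an unmoved 2.58 it passed without replicate 3 of the Sqstm1 knock-out (adjusted p = 0.0138). With the other 6 libraries left out singly, the Ifit1 difference lay between 2.40 and 2.78 and missed the threshold. Between the Sqstm1 knock-out and WT, Ifit1 differed by -1.16 (SE 0.90, limma adjusted p = 0.52). That value was -0.21 without replicate 2 of the Sqstm1 knock-out (limma adjusted p = 0.912) and -2.22 without replicate 3 (limma adjusted p = 0.081), and of 21 alternatives 1, array weights, called it (-1.39, adjusted p = 0.0158).

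Gm13822 and Dhx58, an RNA sensor relative that tunes RIG-I and MDA5, ordered the double knock-out libraries as Ifit1 did, with replicate 1 highest and replicate 2 lowest. That order was not particular to them. Isg15 (87.0, 52.5 and 56.0) and Trim34b (1141, 993 and 1086) also had it, while others such as Stat2 (35.4, 74.2 and 53.5) did not. Trim34b was picked for its closeness to the mean profile of Oasl2, Ifit1 and Ifit3, so its order is partly built in. The share of all genes with that order was not counted. Dhx58 had 97.5, 46.8 and 85.3 normalized counts in the double knock-out, 14.3, 5.68 and 21.7 in the Sqstm1 knock-out, and 27.2, 18.8 and 22.4 in WT. The correlation of Dhx58 with Ifit1 over the 9 libraries was r = 0.948 on the log2 scale. Dhx58 was among the genes closest to Ifit1 by that measure, so its order is not a separate likeness. Oasl2, by contrast, was near 50 in all 3 double knock-out libraries.

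**Figure D2:**
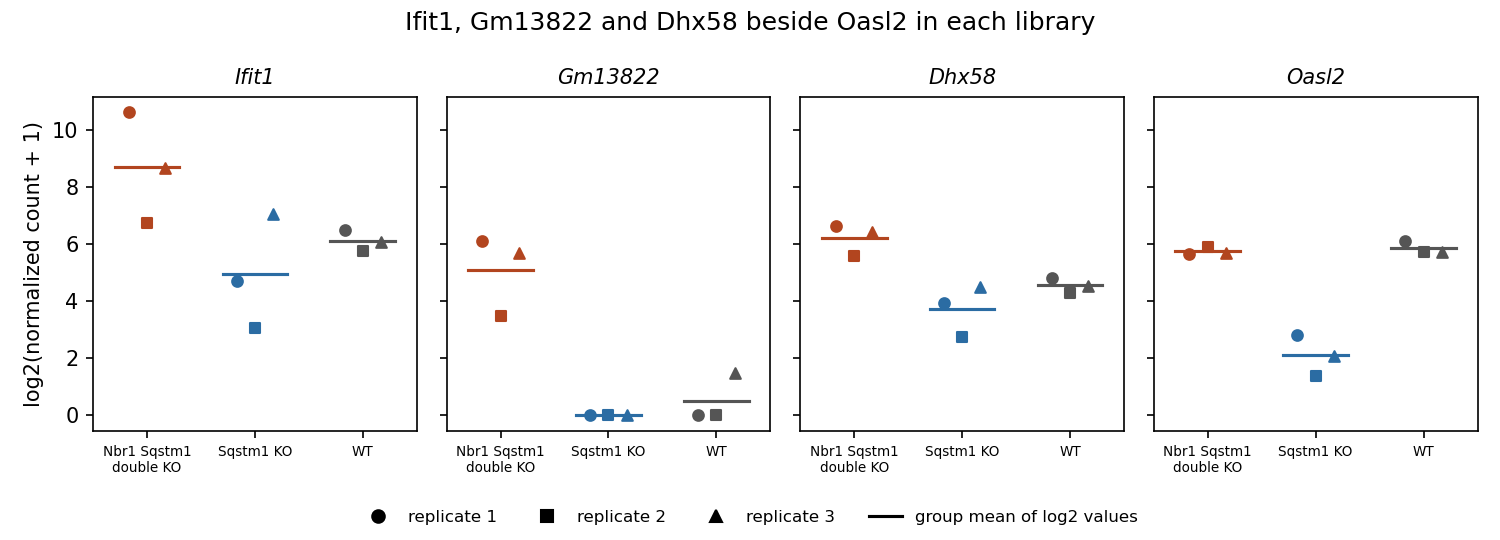
Log2(normalized count + 1) of Ifit1, Gm13822, Dhx58 and Oasl2 in the 9 libraries, by genotype, with the replicate shown by the marker and the group mean of the log2 values as a line. Replicate 1 of the double knock-out is the highest library for Ifit1 (1601 normalized counts), Gm13822 (67.9) and Dhx58 (97.5), and the lowest of its group for Oasl2 (49.7).

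Ifit3, which stabilizes IFIT1 on RNA in human cells, had 5.74, 11.4 and 10.2 normalized counts in the double knock-out, 0, 0 and 2.17 in the Sqstm1 knock-out, and 13.6, 4.52 and 12.1 in WT. The Sqstm1 knock-out lay below both other groups, which overlapped each other. It fell in the Sqstm1 knock-out, which averaged 0.723 ± 1.25, against 10.1 ± 4.88 in WT (SD, n = 3 each; log2 difference -2.79, SE 0.66, limma adjusted p = 0.0237). In the double knock-out Ifit3 averaged 9.11 ± 2.99 (SD, n = 3) and was 2.74 higher on the log2 scale than in the Sqstm1 knock-out (SE 0.66, limma adjusted p = 0.0248). Both calls were close to the threshold. Ifit3 also reached the filter on low values through double knock-out and WT libraries alone, which favours lower values in the Sqstm1 knock-out. In the limma fit with no filter, the adjusted p was 0.0164 against WT and 0.0167 for the double knock-out against the Sqstm1 knock-out. The call against WT was lost without replicate 1 or 2 of the Sqstm1 knock-out (limma adjusted p = 0.0658 and 0.0563) and without replicate 1 or 3 of WT (0.127 and 0.121). The call against the Sqstm1 knock-out was lost without replicate 2 or 3 of the double knock-out (limma adjusted p = 0.077 and 0.102), replicate 1 or 2 of the Sqstm1 knock-out (0.0704 and 0.0697) or replicate 3 of WT (0.0526). Between the double knock-out and WT, Ifit3 differed by -0.06 (95% interval -1.48 to 1.36, limma adjusted p = 0.972).

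Ifit3b is a near copy of Ifit3 in the same cluster on chromosome 19, and the annotated transcripts share 51.2% of the 50-base windows of Ifit3 and 44.5% of those of Ifit3b. Its split from Ifit3 is therefore uncertain. It had 2.87, 4.57 and 1.27 normalized counts in the double knock-out, 0 in all 3 Sqstm1 knock-out libraries, and 5.45, 0.753 and 3.03 in WT. Ifit3b was at least 2.81-fold lower in the Sqstm1 knock-out than in WT and at least 3.09-fold higher in the double knock-out than in the Sqstm1 knock-out, against the same floor, while the exact 95% limits of the ratios were 0.528 and 1.98. Ifit2, the neighbour of Ifit3 and not a member, had 120, 93.6 and 75.1 normalized counts in the double knock-out, 73.5, 69.8 and 70.5 in the Sqstm1 knock-out, and 143, 145 and 143 in WT. It fell to 71.3 ± 1.97 in the Sqstm1 knock-out, against 144 ± 1.54 in WT (SD, n = 3 each; log2 difference -1.0, SE 0.24, limma adjusted p = 0.027). That call was lost without any 1 WT library (limma adjusted p = 0.0897, 0.129 and 0.0965 without replicates 1, 2 and 3) or without replicate 1 or 2 of the Sqstm1 knock-out (0.0642 and 0.057). Ifit2 in the double knock-out differed by 0.40 from the Sqstm1 knock-out (limma adjusted p = 0.4) and by -0.60 from WT (limma adjusted p = 0.167).

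Mx2, a dynamin-like GTPase, had 7.65, 17.1 and 7.64 normalized counts in the double knock-out, 0, 0 and 3.25 in the Sqstm1 knock-out, and 4.09, 7.53 and 7.88 in WT. From 3 reads in the Sqstm1 knock-out and 26 in WT, the ratio of pooled reads was 0.137 (exact 95% interval 0.0265 to 0.446). The double knock-out had 29 reads of Mx2, 11.2 times the pooled level of the Sqstm1 knock-out (3.47 to 57.4). Cmpk2, a mitochondrial nucleotide kinase induced by interferon, had 8.61, 4.57 and 7.64 normalized counts in the double knock-out, 3.06, 1.62 and 0 in the Sqstm1 knock-out, and 20.4, 7.53 and 14.6 in WT. Its pooled level was 8.28-fold lower in the Sqstm1 knock-out than in WT (exact 95% interval 3.32 to 26.6) and 4.40 times higher in the double knock-out than in the Sqstm1 knock-out (1.59 to 15.1). Cmpk2 was the 1 member whose pooled interval also lay below WT in the double knock-out, with a ratio of 0.532 (0.296 to 0.92), although the library values overlapped.

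Rsad2, which encodes viperin and lies next to Cmpk2 on the opposite strand of chromosome 12, had 22.0, 9.13 and 16.6 normalized counts in the double knock-out, 0 in all 3 Sqstm1 knock-out libraries, and 10.9, 6.78 and 16.4 in WT. It fell in the Sqstm1 knock-out against WT (log2 difference -3.55, SE 0.57, limma adjusted p = 0.00177) and was higher in the double knock-out than in the Sqstm1 knock-out (4.00, SE 0.57, limma adjusted p = 0.000584). Rsad2 reached the filter on low values through double knock-out and WT libraries alone, which favours lower values in the Sqstm1 knock-out. Both Rsad2 calls held in 20 of 20 alternatives, those with no filter among them. Between the double knock-out and WT, Rsad2 differed by 0.45 (limma adjusted p = 0.703). Oas1h, a gene of the mouse Oas1 cluster, had 3.82, 7.99 and 7.64 normalized counts in the double knock-out, 0 in each Sqstm1 knock-out library, and 34, 15.1 and 17.6 in WT. Oas1h reached the filter on low values through WT alone and so was bound to be lower in both knock-outs than in WT, and no test is given for it. Oas1b had 8.61, 4.57 and 3.82 normalized counts in the double knock-out, 0 in the Sqstm1 knock-out, and 1.36, 3.01 and 4.24 in WT. Oas1c had 6.69, 3.42 and 2.55 in the double knock-out, 0, 0 and 5.42 in the Sqstm1 knock-out, and 6.81, 3.77 and 10.3 in WT. Both stayed below the filter on low values. Mx1, Ifit1bl1, Ifit1bl2 and Oas1d, Oas1e, Oas1f and Oas1g were not analysed here.

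Most members had lower values in the Sqstm1 knock-out than in both other groups, few of them by a test. In 8 of the 10, all but Oas2 and Ifit1, every Sqstm1 knock-out value lay below every WT value. Over all 14020 genes that held for 13.2%, and the reverse for 11.2%. In 8 of the 10, all but Oasl1 and Ifit1, every double knock-out value lay above every Sqstm1 knock-out value, which held for 11.5% of all genes, with 8.67% the other way. Against WT, Ifit1 was the 1 member whose double knock-out values all lay above, and none lay all below, beside 14.7% and 14.1% of all genes. The median log2 difference of the 10 members was -2.19 in the Sqstm1 knock-out against WT, with all 10 negative and a median of -0.04 over all genes. It was 2.28 in the double knock-out against the Sqstm1 knock-out, with all 10 positive and 0.01 over all genes. It was -0.08 in the double knock-out against WT, with 6 negative, 4 positive and -0.03 over all genes. With genes at 0 set to their bound in pooled reads, the members' medians were -2.73, 2.96 and -0.09, and those of all genes 0.02, -0.01 and 0.01.

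The 9 members other than Ifit1 summed to 95.6, 112 and 91.7 normalized counts in the double knock-out, 11.2, 6.49 and 8.68 in the Sqstm1 knock-out, and 125, 81.4 and 115 in WT. Replicate 3 of the Sqstm1 knock-out, which stood apart over all genes, lay between the other libraries of its group in this sum. Of the 10 members, 0, 0 and 1 had no read in the double knock-out libraries, 6, 5 and 6 in the Sqstm1 knock-out, and 0, 1 and 0 in WT. The reads behind the 8 members other than Ifit1 and Oasl2 came to 48, 46 and 32 per library in the double knock-out, 5, 6 and 5 in the Sqstm1 knock-out, and 42, 39 and 103 in WT. Ifit1 alone gave 94.4%, 49% and 81.6% of the summed normalized counts of all 10 members in the double knock-out, 69.4%, 52.9% and 93.9% in the Sqstm1 knock-out, and 41.8%, 39.3% and 36.8% in WT, so a sum over all members follows Ifit1.

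Only Oasl2, Ifit1 and Ifit3 reached the filter of 10 normalized counts in at least 3 libraries, and a member that reaches it through its high group alone was bound to differ, so counts among these 3 carry no weight. In limma, 2 of them (Oasl2 and Ifit3) were lower in the Sqstm1 knock-out than in WT, where 3.18% of 10118 genes tested were called lower and 2.43% higher. All 3 were higher in the double knock-out than in the Sqstm1 knock-out, where 4.42% of genes were called higher and 1.51% lower. None was called between the double knock-out and WT, where limma called 4.11% of genes higher and 2.31% lower; 1 of the 3, Ifit1, had an unadjusted p under 0.05, and edgeR and DESeq2 each called 1, beside 4.78% and 5.58% of genes called higher. With no filter, limma called 3 of the 10 lower in the Sqstm1 knock-out than in WT (Oasl2, Ifit3 and Cmpk2), beside 2.7% of all genes, and 7 had an unadjusted p under 0.05. It called 4 of the 10 higher in the double knock-out than in the Sqstm1 knock-out (Oasl2, Ifit1, Ifit3 and Mx2), beside 4.09% of all genes, and 9 had an unadjusted p under 0.05. It called 0 of the 10 between the double knock-out and WT, beside 5.56% of all genes, where 1 had an unadjusted p under 0.05. With edgeR on the recovered reads and no filter, Oas1a joined in both comparisons, giving 4 lower (2.89% of all genes) and 5 higher (3.99%), and Ifit1 was called higher in the double knock-out against WT (1 of 10, 3.94%).

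**Figure D3:**
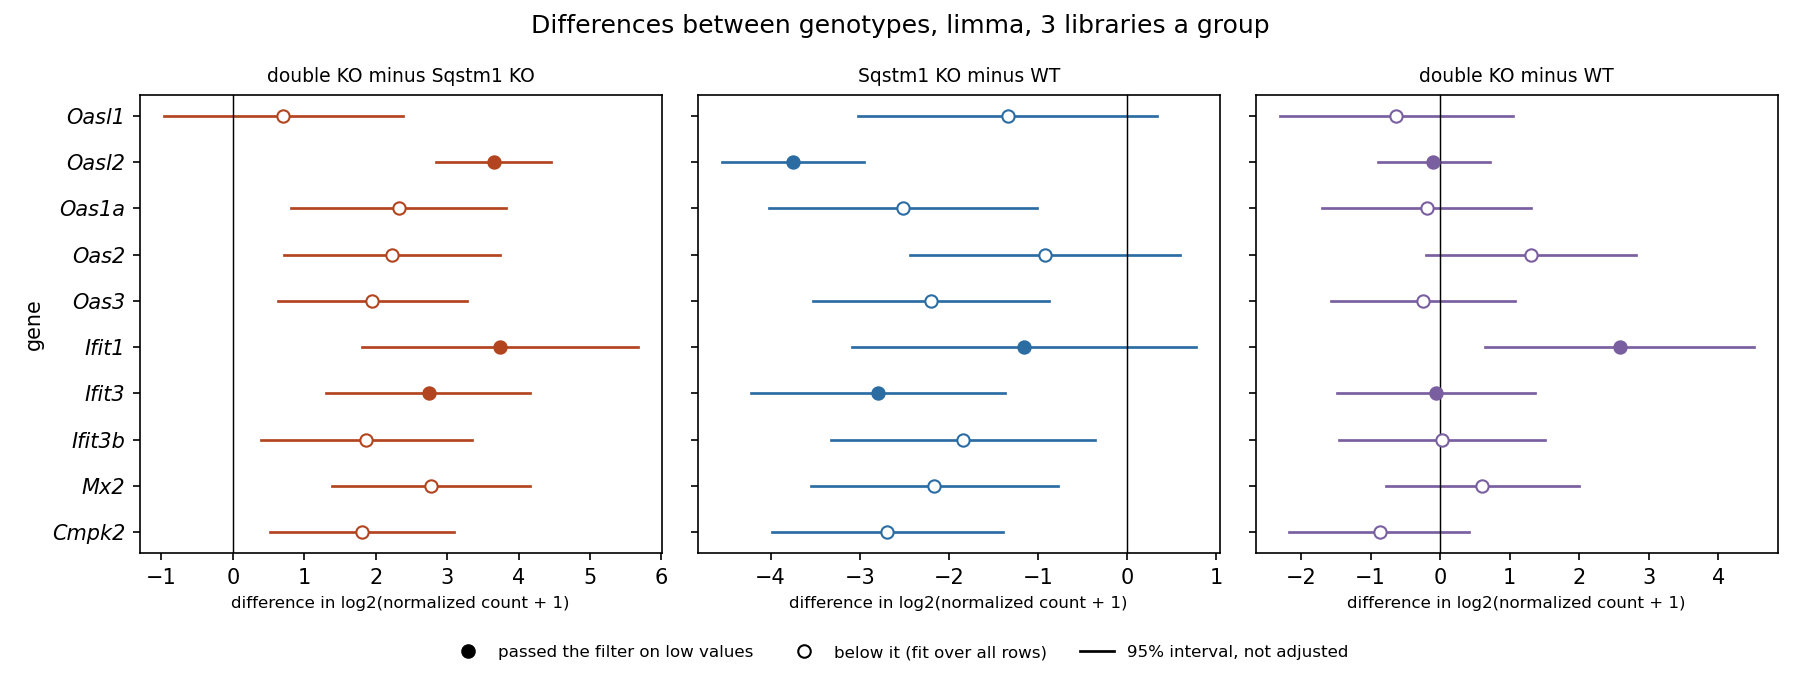
Limma differences in log2(normalized count + 1) for the 10 members in the 3 comparisons, each point with its unadjusted 95% interval. Filled points are members that passed the filter on low values, open points come from the fit over all rows. Against the Sqstm1 knock-out the double knock-out differences run from 0.70 to 3.74, and against WT the Sqstm1 knock-out differences run from -3.75 to -0.92.

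The other parts of the interferon pathway were counted in the same fit. Of the 10118 genes tested, that fit called 3.18% lower and 2.43% higher in the Sqstm1 knock-out against WT. For the double knock-out it called 4.42% higher and 1.51% lower against the Sqstm1 knock-out, and 4.11% higher and 2.31% lower against WT. Whether the count of any list exceeded these shares was not tested, and 1 gene called in a short list carries little weight. None of 9 interferon ligand genes listed had a row. Among 10 receptor and transducer genes tested, limma called 1 in the Sqstm1 knock-out against WT, which was lower, 3 in the double knock-out against the Sqstm1 knock-out, all higher, and 1 in the double knock-out against WT, which was higher. The gene that fell in the Sqstm1 knock-out was Stat2, which pairs with IRF9. Stat2 averaged 8.52 ± 3.96 normalized counts in the Sqstm1 knock-out and 51.4 ± 12.3 in WT (SD, n = 3 each; log2 difference -2.51, SE 0.38, limma adjusted p = 0.00131). In the double knock-out Stat2, at 54.4 ± 19.4, was 2.56 higher than in the Sqstm1 knock-out (SE 0.38, limma adjusted p = 0.000872). Irf9 had 35.1 ± 14.3 in the double knock-out and 7.44 ± 1.12 in the Sqstm1 knock-out (SD, n = 3 each; 2.01, SE 0.38, limma adjusted p = 0.00569). The kinase gene Jak2 had 122 ± 19.9 and 43.9 ± 18.4 (1.54, SE 0.33, limma adjusted p = 0.0116). In WT, Irf9 averaged 19.6 ± 1.97 and Jak2 61.5 ± 8.38 (SD, n = 3 each). Every double knock-out value of Jak2 lay above every WT value. Against WT, the interferon receptor gene Ifnar2 was the 1 called, at 47.3 ± 7.9 in the double knock-out and 17.7 ± 3.12 in WT (SD, n = 3 each; 1.37, SE 0.34, limma adjusted p = 0.0266). The Ifnar2 call was lost without replicate 1 or 3 of the double knock-out (limma adjusted p = 0.102 and 0.0788) or without any 1 WT library (0.0959, 0.0673 and 0.104).

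Among 6 interferon regulatory factor genes tested, limma called 1 lower in the Sqstm1 knock-out than in WT, 2 higher in the double knock-out than in the Sqstm1 knock-out, and 1 higher in the double knock-out against WT. Irf7, the factor that amplifies interferon production, averaged 13.7 ± 1.97 normalized counts in the double knock-out, 1.15 ± 1.22 in the Sqstm1 knock-out and 10.7 ± 5.35 in WT (SD, n = 3 each). Its log2 difference was -2.52 in the Sqstm1 knock-out against WT (SE 0.58, limma adjusted p = 0.0208), lost without WT replicate 1 or 2 (limma adjusted p = 0.0798 and 0.151), and 2.94 in the double knock-out against the Sqstm1 knock-out (SE 0.58, limma adjusted p = 0.00708). Irf7 overlaps Phrf1 on the opposite strand. Irf3, which overlaps Bcl2l12 on the opposite strand, was called higher in the double knock-out against WT (1.71, SE 0.44, limma adjusted p = 0.0312), a call lost without any 1 double knock-out library (limma adjusted p = 0.102, 0.0503 and 0.112) or without WT replicate 1 or 3 (0.0988 and 0.153). Among 7 feedback inhibitors tested, 1 was lower in the Sqstm1 knock-out than in WT and 2 were higher in the double knock-out than in the Sqstm1 knock-out. None was called by limma between the double knock-out and WT, where 1 had an unadjusted p under 0.05, edgeR called 0 and DESeq2 called 1. Isg15, a ubiquitin-like modifier counted on this list, had 87.0, 52.5 and 56.0 normalized counts in the double knock-out, 2.04, 4.06 and 19.5 in the Sqstm1 knock-out, and 31.3, 40.7 and 34.6 in WT. Whether it inhibits interferon signalling in these cells was not tested. Its difference was -2.42 in the Sqstm1 knock-out against WT (SE 0.54, limma adjusted p = 0.0172) and 3.24 in the double knock-out against the Sqstm1 knock-out (SE 0.54, limma adjusted p = 0.00212). The Isg15 call against WT was lost without any 1 WT library (limma adjusted p = 0.0662, 0.0809 and 0.0632) or without replicate 1 of the Sqstm1 knock-out (difference -1.83, limma adjusted p = 0.0523), and was -3.21 without replicate 3 of the Sqstm1 knock-out, where the other difference was 4.04; without replicate 1 it was 2.66. Socs3, an inhibitor of JAK kinases and the other gene counted as higher, had 21.9 ± 7.3 in the double knock-out and 2.53 ± 1.5 in the Sqstm1 knock-out (SD, n = 3 each). It reached the filter on low values through the double knock-out alone, so its count among those higher carries no weight.

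Of 5 genes of the OAS and double-stranded RNA pathway that were tested, 2 were lower in the Sqstm1 knock-out than in WT, 1 was higher in the double knock-out than in the Sqstm1 knock-out, and none was called by limma, edgeR or DESeq2 in the double knock-out against WT, where 0 had an unadjusted limma p under 0.05. Eif2ak2, the kinase PKR that responds to double-stranded RNA beside OAS, had 126 ± 28.1 in the double knock-out, 59.9 ± 10.6 in the Sqstm1 knock-out and 132 ± 25.5 in WT (SD, n = 3 each). It fell by 1.13 on the log2 scale in the Sqstm1 knock-out against WT (SE 0.27, limma adjusted p = 0.0234) and was 1.05 higher in the double knock-out than in the Sqstm1 knock-out (SE 0.27, limma adjusted p = 0.0319). The first Eif2ak2 call was lost without any 1 WT library (limma adjusted p = 0.0522, 0.0891 and 0.124) or replicate 1 of the Sqstm1 knock-out (0.0878). The second was lost without replicate 1 or 2 of the double knock-out (0.0888 and 0.105), replicate 1 or 2 of the Sqstm1 knock-out (0.113 and 0.0577) or WT replicate 2 (0.0659). Adar, which edits double-stranded RNA, had 13.9 ± 7.93 in the Sqstm1 knock-out and 38.8 ± 6.88 in WT (SD, n = 3 each; -1.57, SE 0.42, limma adjusted p = 0.0435), a call lost without any 1 of 8 libraries, all but replicate 2 of the Sqstm1 knock-out (limma adjusted p = 0.0526 to 0.168).

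Among 29 other antiviral effector genes tested, limma called 15 in the Sqstm1 knock-out against WT, all lower, with a median log2 difference of -1.41 beside -0.01 over all genes tested. That count was 8, 7 and 6 without WT replicates 1, 2 and 3, and 9, 13 and 15 without Sqstm1 knock-out replicates 1, 2 and 3. Limma called 13 of the 29 in the double knock-out against the Sqstm1 knock-out, all higher, with a median of 1.44 beside -0.01, and 1 against WT, which was higher, with a median of 0.10 beside -0.02. Some of the 29, Rsad2 and Lgals3bp among them, reached the filter on low values through double knock-out and WT libraries alone. That favours lower values in the Sqstm1 knock-out, so these counts rest in part on the filter. With no filter, limma called 15 of 31 lower in the Sqstm1 knock-out than in WT, beside 2.7% of all genes. It called 16 of 31 higher in the double knock-out than in the Sqstm1 knock-out, beside 4.09%. Rsad2, Isg15, Eif2ak2 and Adar, described above, are also on this list. Lgals3bp, a secreted glycoprotein, averaged 51.1 ± 9 normalized counts in the double knock-out, 3.57 ± 2.53 in the Sqstm1 knock-out and 28.4 ± 10.5 in WT (SD, n = 3 each). It fell by 2.75 on the log2 scale in the Sqstm1 knock-out against WT (SE 0.44, limma adjusted p = 0.00176) and was 3.63 higher in the double knock-out than in the Sqstm1 knock-out (SE 0.44, limma adjusted p = 0.000159). Trim25, the ubiquitin ligase of RIG-I, averaged 10.1 ± 4.59 in the Sqstm1 knock-out and 48.7 ± 5.78 in WT (-2.25, SE 0.36, limma adjusted p = 0.00173). Xaf1, an apoptosis-promoting protein induced by interferon, averaged 17.2 ± 10.7 and 67.5 ± 7.99 (-2.07, SE 0.39, limma adjusted p = 0.00539). In the double knock-out Trim25 averaged 26.7 ± 2.63, with every value below every WT value, and Xaf1 60 ± 21.3 (SD, n = 3 each). Dtx3l, a ubiquitin ligase that pairs with PARP9, averaged 67.1 ± 1.52 in the double knock-out and 16.6 ± 3.71 in the Sqstm1 knock-out (SD, n = 3 each; 1.98, SE 0.30, limma adjusted p = 0.00102), and it overlaps Parp9 on the opposite strand. In WT Dtx3l averaged 35.8 ± 9.48 (SD, n = 3), and every double knock-out value lay above every WT value. Dhx58 was the 1 gene of the list called between the double knock-out and WT (1.65, SE 0.43, limma adjusted p = 0.0355). It overlaps Dhx58os on the opposite strand, and its call was lost without replicate 1 or 3 of the double knock-out (limma adjusted p = 0.141 and 0.147) or without any 1 WT library (0.0771, 0.155 and 0.12).

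**Figure D4:**
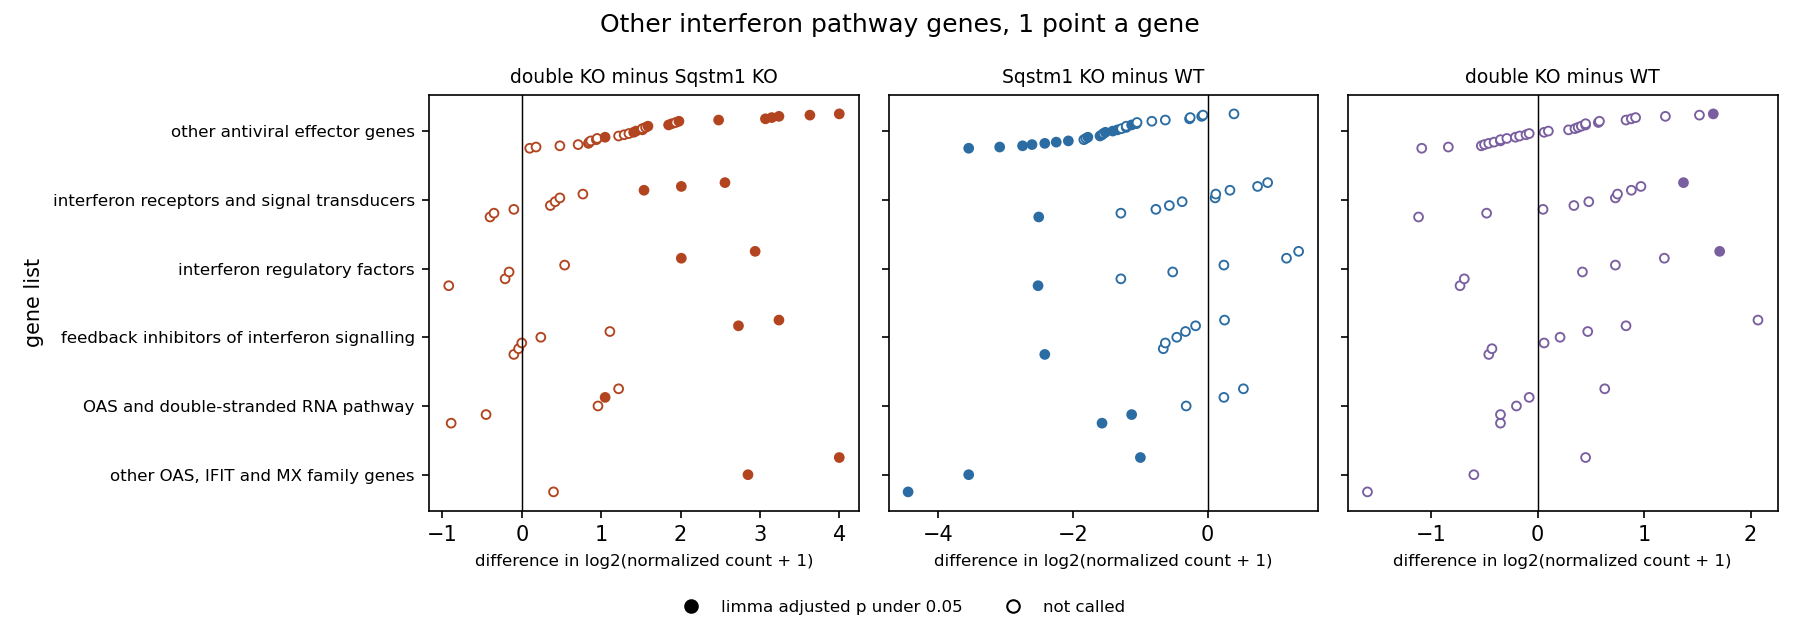
Limma differences in log2(normalized count + 1) of the tested genes in 6 lists of the interferon pathway, in the 3 comparisons, with 1 point a gene and filled points for an adjusted p under 0.05. Of the 29 other antiviral effector genes, 15 are called lower in the Sqstm1 knock-out than in WT and 13 higher in the double knock-out than in the Sqstm1 knock-out. Some of the 29 reached the filter through double knock-out and WT libraries alone, which favours such calls.

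Likeness of pattern was described by Pearson's r over the 9 libraries on the log2 scale, which share 3 genotype groups. Among the tested members, Oasl2 and Ifit3 had r = 0.895 (Spearman's rho 0.904), Oasl2 and Ifit1 r = 0.563 (rho 0.183), and Ifit1 and Ifit3 r = 0.585 (rho 0.41). The genes outside the members closest to the mean profile of the 3 were Nlgn4l (r = 0.975, rho 0.912), Stx18 (0.974, rho 0.967), Adamts7 (0.963, rho 0.967), Trim34b (0.961, rho 0.967) and Tuba8 (0.955, rho 0.667). Closest to Oasl2 alone were Fgf10 (0.985, rho 0.527) and the Y-linked Ddx3y (0.977, rho 0.78), whose 0 values in the Sqstm1 knock-out mark the same 3 libraries. Fgf10 had only 1, 0 and 0 reads in those libraries, so its high r also rests on the gap to that group. Closest to Ifit1 alone, a choice made after its values were seen, were Ogfr (0.972), Parp2 (0.963), Dhx58 (0.948), Psme2 (0.948) and Gp1ba (0.947).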

How the data were processed

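RNA was sequenced from 9 libraries of cultured mouse hepatic stellate cells, 3 for each of 3 genotypes, which were taken from the labels. The submitters' processing notes name STAR, DESeq2 and the build GRCm39, with no versions, and no source used here says whether reads were counted by strand. The authors deposited 1 table of gene counts divided by a size factor per library, a signal that is not a raw count and not corrected for gene length. Whole reads were recovered from it: 100% of 121126 values above 0 were whole multiples of the worth of 1 read (tolerance 0.01). No gene of the table has under 14 reads over the libraries.

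The main test was limma 3.58.1 (R 4.3.3, mean-variance trend, two-sided) on log2(value + 1) over all 9 libraries, for the 10118 genes that reached 10 normalized counts in 3 or more libraries. Benjamini-Hochberg adjustment ran over all genes tested, with a threshold of 0.05. Of the genes named with a test, Oasl2, Ifit3, Rsad2, Irf7, Irf9 and Lgals3bp reached the filter through double knock-out and WT libraries alone. So did Cd14, Ddx3y, Eif2s3y, Kdm5d, Uty, Nlgn4l, Tuba8 and Fgf10, which are named without a test. Such a filter favours lower values in the Sqstm1 knock-out. A log2 difference on this scale understates the change of low genes. Limma called 568 genes in the Sqstm1 knock-out against WT, 600 in the double knock-out against the Sqstm1 knock-out and 650 in the double knock-out against WT. On the recovered reads, edgeR 4.0.16 called 642, 614 and 735, and DESeq2 1.42.0 called 802, 716 and 880. Exact permutation of 3 against 3 libraries gives no p under 0.1 and was not used. Pooled reads were compared by exact intervals, with a floor of 3 reads per group.

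All 10 members, the genes of their families that have a row, and up to 4 genes of each pathway list by smallest p are named; Gm13822 was chosen after its values were seen. Some pathway genes are not reported here and are left out of the list counts. The members and gene lists were chosen with earlier results of these data known. Opposite-strand overlaps, neighbours and shared 50-base windows come from GENCODE M21 by gene name. Limma, edgeR and DESeq2, each with the filter on low values, were tried on simulated data first. The intervals on pooled reads, the floor, the fits with no filter, the replicate block and the array weights were not. No batch is given in the labels.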

Additional observations from a re-analysis of the deposited data

How the results depend on the processing

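Oasl2 kept both calls in 21 of 21 alternatives. The number of members called in the Sqstm1 knock-out against WT was 2, and became 1 with a filter at 25, 3 with array weights (Ifit1 added) and with no filter (Cmpk2 added), 4 with edgeR and no filter (an alternative chosen after seeing the data), and 1 to 2 when single libraries were left out. In the double knock-out against the Sqstm1 knock-out it was 3, and became 1 with only the 2 groups compared in the fit, 5 with edgeR and no filter, and 1 to 3 with single libraries left out. In the double knock-out against WT it was 0, and became 1, always Ifit1, with edgeR, with DESeq2, with array weights, with only the 2 groups compared and with edgeR and no filter, and 0 to 1 with single libraries left out. The cause was not tested.

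The sign of 2 uncalled differences between the double knock-out and WT turned: Oasl2 ran from -0.17 to 0.03 with single libraries left out (0.03 without WT replicate 1), and Ifit3 from -0.50 to 0.21 (0.20 without WT replicate 1, 0.12 without WT replicate 3, 0.21 without double knock-out replicate 1), with 0.64 under array weights. Genes called over the whole table came to 2639, 1363 and 3210 with array weights, and to 352 and 1229 with only the 2 groups compared, for the double knock-out against the Sqstm1 knock-out and against WT. With single libraries left out they ran from 264 to 659 for the Sqstm1 knock-out against WT, from 333 to 777 for the double knock-out against the Sqstm1 knock-out, and from 294 to 1409 for the double knock-out against WT. Rescaling to equal totals moved the median log2 difference of all genes in the Sqstm1 knock-out against WT to -0.21 and the share of calls that were higher to 29.5%, against 43.3%, with Oasl2 at -3.94 and Ifit3 at -3.0.

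Between libraries with the same replicate number the correlation of deviations ran from -0.115 to 0.178, was positive in 8 of 9 pairs and over 0.1 in 5, and 6 of 9 libraries correlated best with their own number. Over pairs with different numbers it ran from -0.258 to 0.261, so the highest single correlation joined different numbers. Not every same-number pair was over 0.1 and no label ties the numbers to a shared animal or batch. The numbers were therefore not taken to pair the samples, though the same-number correlations hint that some may. With the replicate block, limma called 690, 672 and 754 genes, and 1 member, Ifit1, in the double knock-out against WT (2.58, adjusted p = 0.0231).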
